A study of Mus musculus with 6 samples.

Results

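The genes described are the aminoacyl-tRNA synthetases of the mouse and the scaffold proteins that hold some of them together, 39 genes of the 49315 in the count table. They were taken by gene symbol and not by a measured value, but with earlier results of these data known. They are 20 cytosolic synthetases, 16 mitochondrial synthetases, whose symbols end in 2, and 3 scaffold genes (Aimp1, Aimp2 and Eef1e1). All 39 matched a row of the table. RAW264.7, an established mouse macrophage-like line derived from a virus-induced tumour and labelled wild type, was treated for 24 h with 4 μg/mL of SKI-II, a small molecule known as an inhibitor of sphingosine kinase, or with its vehicle DMSO, and 3 RNA sequencing libraries were made per group. In the study, SKI-II had been picked out as a compound that protects the host during Staphylococcus aureus infection, and the libraries were made to map its effect on the transcripts of uninfected macrophages. Treatment and RNA extraction followed those of the study's quantitative PCR, which its methods describe as run in biological replicates, but neither the labels nor the account of the sequencing says that the libraries of a group came from separate cultures. If they did not, the p-values measure a spread that may be technical. RNA was pooled over all cells of a culture, so less RNA per cell and fewer cells that carry it cannot be told apart.

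The libraries held 12495957 to 20050677 counts. All 10 macrophage markers examined, Ptprc, Cd68, Csf1r and Spi1 among them, had counts in every library. Their level was not even between the groups: they summed to 8860 to 12900 CPM with DMSO and 5670 to 8040 with SKI-II. CPM are counts relative to the scaled library size, that is the library total times its TMM scaling factor. With SKI-II, 2 of the 10 markers were higher (Cd14 and Fcgr1) and 4 lower (Itgam, Lyz2, Adgre1 and Mrc1). The lower sum came from Lyz2, the lysozyme gene: without it, a sum taken after the data were seen, the other 9 markers came to 3220 to 3530 CPM with DMSO and 3900 to 4220 with SKI-II. Of 16 markers of T, B, natural killer, epithelial, endothelial, stromal, liver and red blood cells, 8 were at 0 in every library and the rest summed to 0.847 to 1.78 CPM. The part of the macrophage markers' shift in the results below was not tested.

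Aminoacyl-tRNA synthetases are the enzymes that join each amino acid to its own tRNA, the step at which the genetic code is read. Mammalian cells carry one set in the cytosol and a second, also encoded in the nucleus, that is imported to charge the tRNAs of the mitochondrial genome. In the cytosol part of the set is bound into the multi-synthetase complex around the scaffold proteins AIMP1, AIMP2 and AIMP3, the last of these encoded by Eef1e1. Transcription of many cytosolic synthetase genes is known to be raised by ATF4, the factor that is translated when the kinases PERK, GCN2, PKR or HRI phosphorylate eIF2 alpha.

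ATF4 binds, with C/EBP partners, a composite element whose core letters are TGATGNAA, where N is any base. These letters were searched on both strands in the 250 bases before each RefSeq gene start, and the members whose window held them are printed because they show where such an element lies in this family. A window was found for 30 of the 39 members, Lars, Rars, Cars, Hars, Nars, Vars, Wars, Hars2 and Pars2 being without one. The letters were in 3 of the 30 windows (10%), those of the alanine, glycine and threonine enzymes, against 1134 of 32851 promoters of the same length (3.45%). The sequences run 5′ to 3′ on the strand of the gene, from RefSeq on GRCm38.p6, and capitals mark the core, which in all 3 lies in reverse orientation.
Aars: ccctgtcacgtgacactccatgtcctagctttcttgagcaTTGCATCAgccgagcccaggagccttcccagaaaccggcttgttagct
Gars: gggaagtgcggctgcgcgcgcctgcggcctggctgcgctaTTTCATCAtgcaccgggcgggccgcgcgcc
Tars: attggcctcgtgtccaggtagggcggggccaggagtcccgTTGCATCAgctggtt
Aars is shown at chr8:111033690-111033777 on the plus strand with the core at position -112 from the RefSeq start, inside the GENCODE M21 span of the gene, which begins further upstream. Gars is at chr6:55037931-55038000 on the plus strand with the core at -30, and Tars at chr15:11399659-11399713 on the minus strand with the core at -15. None of these 3 genes differed between the groups at the threshold given below. Of the 13 members that passed it, 8 had a window and none of these held the letters. Lars, Rars, Nars, Wars and Vars had no window, so none of the 4 cytosolic synthetases that rose was searched. CACGTG, the E-box that MYC and the MiT/TFE factors bind and which reads the same on both strands, was in 3 of the 30 windows (10%), those of Iars, Aars and Farsb, against 6.02% of all promoters. CCAAT, read on both strands and bound by NF-Y, was in 15 windows (50%) against 33.8%. A match of letters is a description of the window and was not tested as a binding site.

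Counts were scaled with TMM factors and compared by the quasi-likelihood test of edgeR, with Benjamini-Hochberg adjusted p-values over all 12274 genes that had enough reads, and a gene is said to differ at an adjusted p below 0.05. Values per library are normalized counts, that is counts on the scale of the mean library, given in the order of replicates 1, 2 and 3. All 39 members had enough reads, the lowest count in any library being 53. Of all genes tested, 2255 (18.4%) rose and 2413 (19.7%) fell with SKI-II. Among the members 6 rose (15.4%) and 7 fell (17.9%), shares near those of all genes. With a log2 fold change above 1 as a further condition, 1 member rose, Wars, where 8.28% of all genes did, and with one below -1 none fell, where 7.44% of all genes did. The 3 DMSO and 3 SKI-II libraries did not overlap for 15 members, 6 of them higher and 9 lower with SKI-II, against 24.7% and 25.5% of all genes. The median log2 fold change of the members was -0.04 and that of all genes 0.00, and the median size of the change regardless of sign was 0.28 for the members and 0.41 for all genes. For the 26 members that were not called, the 95% intervals lay between -1.20 (Mars2) and 0.87 (Pars2), and for 24 of them within 1 of 0 on the log2 scale.

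Only Wars, Lars and Vars were called under each of the 12 alternative ways of processing the counts. The other 10 called members lost the call under at least 1, and 5 members that were not called gained it. The number that rose was 3 without replicate 1 of DMSO, 2 without replicate 2 of either group and 3 without replicate 3 of SKI-II. The number that fell was 1 without replicate 2 and 4 without replicate 3 of DMSO, and 2 without replicate 1 and 3 without replicate 2 of SKI-II. No called member changed direction under any of them.

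**Figure D1:**
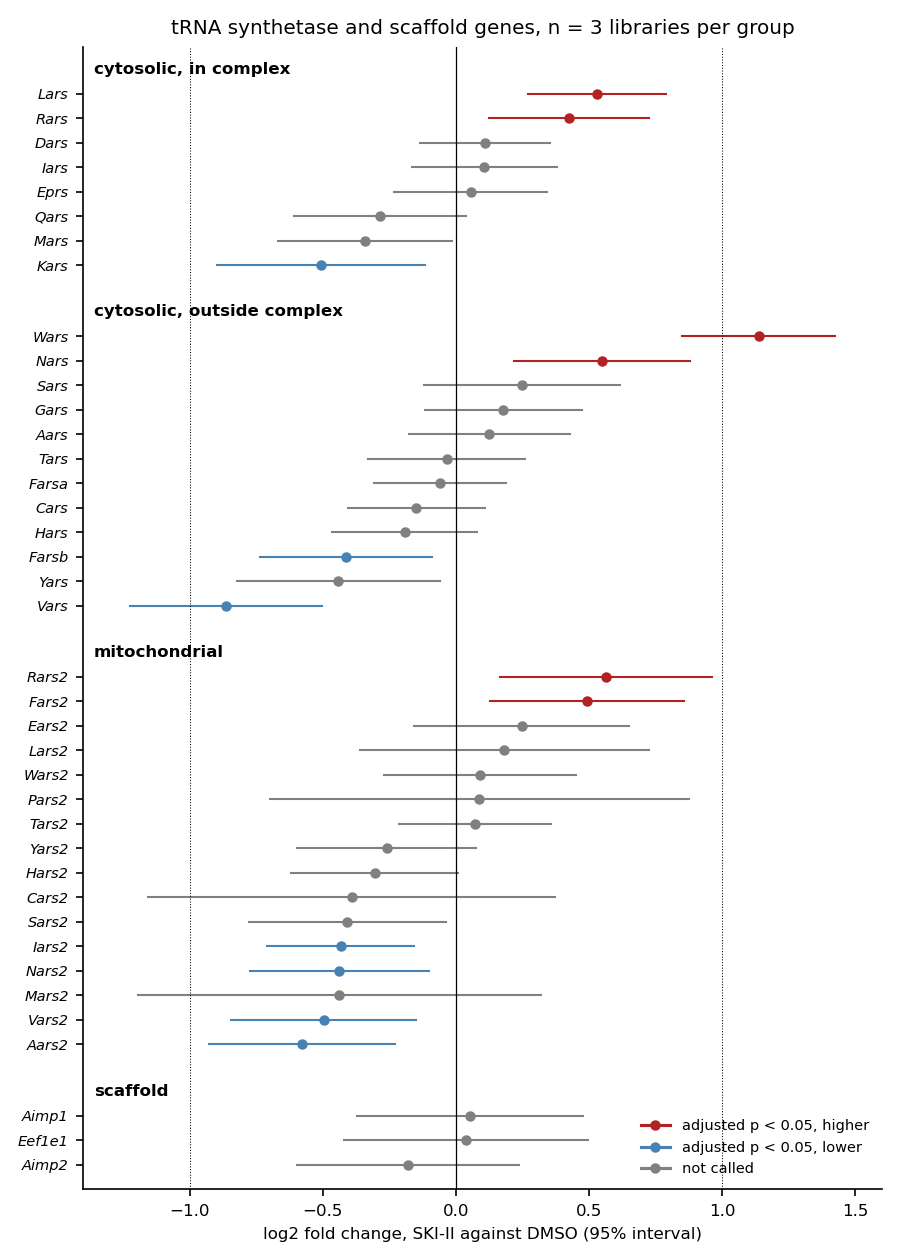
Log2 fold change of each of the 39 genes (x axis; SKI-II against DMSO, n = 3 libraries each; points, estimates; lines, 95% intervals) by group, with dotted lines at 1 and -1. Wars lies farthest to the right at 1.14 and Vars farthest to the left at -0.86, the 13 called genes are coloured by direction, and each group of synthetases holds genes on both sides of 0.

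Of the 8 synthetases of the multi-synthetase complex, 2 rose (Lars and Rars), 1 fell (Kars) and 5 were not called (25% higher and 12.5% lower, against 18.4% and 19.7% of all genes), with a median log2 fold change of 0.08. Lars, the leucyl-tRNA synthetase, which also senses leucine for mTORC1, had 5314, 5238 and 5316 normalized counts with DMSO and 7438, 8080.3 and 7384 with SKI-II. All 3 SKI-II libraries lay above all 3 DMSO libraries, which were within a narrow range of each other. The difference was the largest rise in the complex (log2 fold change 0.53, SE 0.12, 95% interval 0.27 to 0.79, adjusted p = 0.00571). Rars, which charges arginine, rose from 5417 ± 647 to 7267 ± 454 normalized counts (mean ± SD, n = 3 each), with no overlap (log2 fold change 0.42, SE 0.13, adjusted p = 0.031). It was no longer called when replicate 1 or 2 of DMSO, or replicate 2 or 3 of SKI-II, was left out, where its adjusted p was 0.0772 to 0.108. Kars, which makes the lysyl-tRNA synthetases of both the cytosol and the mitochondria from one gene, had 3632, 4386 and 5210.0 normalized counts with DMSO and 2593, 2933 and 3774 with SKI-II. SKI-II replicate 3 lay above DMSO replicate 1, so the groups overlapped, although the fall passed the test (log2 fold change -0.51, SE 0.18, 95% interval -0.90 to -0.12, adjusted p = 0.0443). Without replicate 2 or 3 of DMSO, or replicate 1 or 2 of SKI-II, it did not pass, at an adjusted p of 0.108 to 0.138.

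The other synthetases of the complex were not called. Mars, which charges methionine, had a log2 fold change of -0.34, SE 0.15, adjusted p = 0.0931, and without SKI-II replicate 3 it was called lower at an adjusted p of 0.0294. Its exons overlap Ddit3, the gene of CHOP, on the opposite strand over 68 bp (2.0% of its exon bases). Whether the counting used strand is not stated in the sources, and reads of such partners may be mixed. Qars, for glutamine, stood at -0.28 ± 0.14, Dars, for aspartate, at 0.11 ± 0.11, and Iars, for isoleucine, at 0.11 ± 0.12. Eprs, a single protein that charges both glutamate and proline, stood at 0.05 ± 0.13. The ± values are standard errors, and none of these 4 was called under any alternative.

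Outside the complex, 2 of the 12 cytosolic synthetases rose (Wars and Nars), 2 fell (Vars and Farsb) and 8 were not called (16.7% in each direction, against 18.4% and 19.7% of all genes), with a median log2 fold change of -0.05. Wars, the tryptophanyl-tRNA synthetase, known for its induction by interferon gamma and for a secreted form that acts on immune cells, had 3710.1, 4226 and 4060.1 normalized counts with DMSO and 8189.9, 8396 and 9799 with SKI-II. Every SKI-II library was far above every DMSO library, and the rise was the largest of all 39 genes (log2 fold change 1.14, SE 0.13, 95% interval 0.85 to 1.43, adjusted p = 0.000153), a fold of 2.20. The gene lies on the minus strand at chr12:108860030-108894174 (GRCm38, GENCODE M21). Nars, which charges asparagine, rose from 11644 ± 1661 to 17026 ± 887 normalized counts (mean ± SD, n = 3 each), and its groups did not overlap (log2 fold change 0.55, SE 0.15, adjusted p = 0.0158). Without replicate 1 or 2 of DMSO, or replicate 2 of SKI-II, the adjusted p of Nars was 0.0525 to 0.0744.

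Vars, the valyl-tRNA synthetase, on the plus strand at chr17:35000987-35016322, moved the other way. It had 11770.5, 13644 and 14426 normalized counts with DMSO and 6260.2, 6823 and 8805 with SKI-II. The lowest DMSO library was above the highest SKI-II library, and the fall was the largest of all members (log2 fold change -0.86, SE 0.16, 95% interval -1.23 to -0.50, adjusted p = 0.00262), to 0.549 of the DMSO level. Farsb, the beta subunit of the phenylalanyl-tRNA synthetase, fell from 3313 ± 392 to 2486 ± 380 normalized counts (mean ± SD, n = 3 each). SKI-II replicate 3 was just above DMSO replicate 1, and the call (log2 fold change -0.41, SE 0.14, adjusted p = 0.0464) was lost without replicate 2 or 3 of DMSO, or replicate 1 or 2 of SKI-II, at 0.121 to 0.166. Its alpha subunit, Farsa, stood at -0.06 ± 0.11 (SE) and was not called. The level of Farsb over that of Farsa, per length of exon, was 3.04, 3.26 and 3.82 with DMSO and 2.56, 2.35 and 3.00 with SKI-II. The ratio was lower in each SKI-II library than in any DMSO library (exact permutation test, two-sided, p = 0.1, the smallest that 3 against 3 libraries allow).

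Yars, which charges tyrosine and has a cytokine-like domain, had a log2 fold change of -0.44, SE 0.17, adjusted p = 0.0672. It was called lower without DMSO replicate 1 or SKI-II replicate 3, at an adjusted p of 0.0231 to 0.0261, with scaling by library size alone, at 0.0457, and with no filter on low counts, at 0.0246. The remaining members outside the complex were not called under any alternative. Sars, for serine, stood at 0.25 ± 0.17, Gars, which serves glycine in both compartments, at 0.18 ± 0.13, and Aars, for alanine, at 0.12 ± 0.14. Tars, for threonine, stood at -0.04 ± 0.13, Cars, for cysteine, at -0.15 ± 0.12, and Hars, for histidine, at -0.19 ± 0.12. Hars and Hars2 lie head to head and overlap over 195 bp on opposite strands. The exons of Aars overlap those of Exosc6 over 1326 bp on the same strand (14.3% of its exon bases), and Exosc6, a subunit of the RNA exosome, had 0 counts in all libraries.

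**Figure D2:**
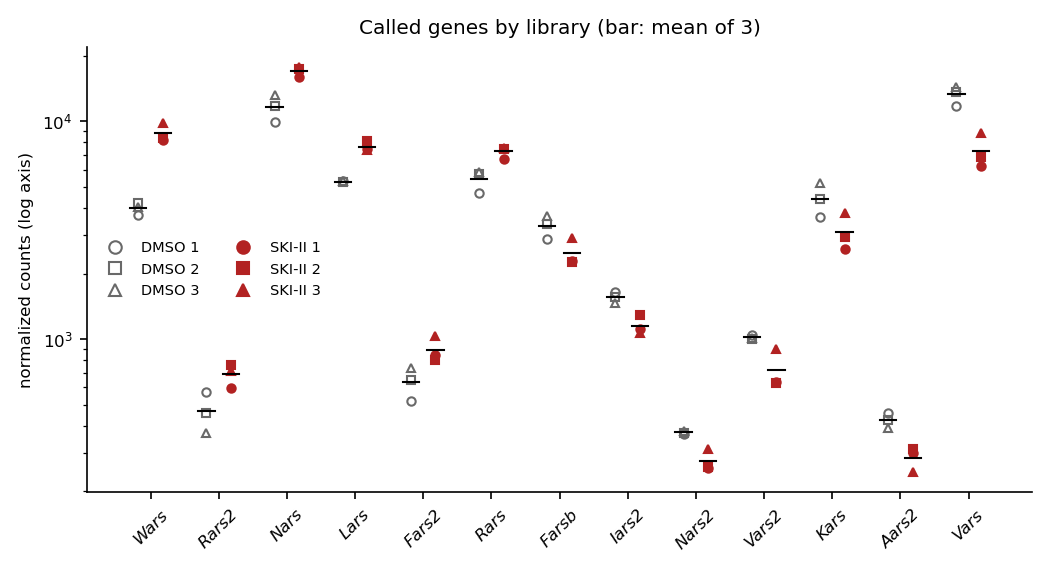
Normalized counts (y axis, log scale) of the 13 called genes in each library, ordered by log2 fold change, with DMSO open and SKI-II filled, the replicate number given by the shape and the mean of 3 libraries by the bar. The groups of Wars, Nars, Lars and Vars stand apart, while the SKI-II triangles of Kars and Farsb lie above the lowest DMSO point.

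Over the 20 cytosolic synthetases together, 4 rose (20%) and 3 fell (15.0%), against 18.4% and 19.7% of all genes, with a median log2 fold change of 0.01. The number that rose was 2 when replicate 1 or 2 of DMSO, or replicate 2 of SKI-II, was left out. The number that fell was 1 without replicate 2 or 3 of DMSO, or replicate 1 or 2 of SKI-II, and 5 without replicate 3 of SKI-II. The libraries of a group were not level with each other: DMSO replicate 1 was the lowest of the DMSO libraries for 18 of the 20 genes and SKI-II replicate 1 the lowest of the SKI-II libraries for 16 of them. The summed level of the 20 genes was 7240, 8300 and 8780 CPM with DMSO and 8020, 8570 and 9130 with SKI-II, and the groups overlapped.

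Of the 16 mitochondrial synthetases, 2 rose (Rars2 and Fars2), 4 fell (Aars2, Vars2, Nars2 and Iars2) and 10 were not called, which is 12.5% and 25% of the set against 18.4% and 19.7% of all genes. Their median log2 fold change was -0.28. The groups did not overlap for 2 of the 16 genes in the higher direction and for 7 in the lower one, against 24.7% and 25.5% of all genes. Rars2, the mitochondrial arginine enzyme, at chr4:34614957-34660167, had 574, 456 and 369 normalized counts with DMSO and 597, 758 and 713 with SKI-II. The lowest SKI-II value, in replicate 1, was only just above the highest DMSO value, also in replicate 1 (log2 fold change 0.56, SE 0.18, 95% interval 0.16 to 0.96, adjusted p = 0.0314). The call was lost when replicate 2 or 3 of either group was left out, at an adjusted p of 0.0653 to 0.112, and at 0.055 with scaling by library size alone. Fars2, which charges phenylalanine as a single chain, rose from 635 ± 109 to 892 ± 124 normalized counts (mean ± SD, n = 3 each; log2 fold change 0.49, SE 0.16, adjusted p = 0.0377). It was not called without replicate 1 or 2 of DMSO or any 1 of the SKI-II libraries, at 0.0513 to 0.123.

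Aars2, for alanine, on the plus strand at chr17:45506841-45520843, had 458, 427 and 392 normalized counts with DMSO and 299, 313 and 245 with SKI-II. All SKI-II libraries were below all DMSO libraries, and the fall was the largest in the mitochondrial set (log2 fold change -0.58, SE 0.16, 95% interval -0.93 to -0.23, adjusted p = 0.0158). It was lost without DMSO replicate 2, at an adjusted p of 0.0566. Vars2, for valine, fell from 1019 ± 20.1 to 722 ± 153 normalized counts (mean ± SD, n = 3 each; log2 fold change -0.50, SE 0.16, adjusted p = 0.0301). It was lost without any 1 of the DMSO libraries, or replicate 1 or 2 of SKI-II, at 0.0504 to 0.122. Nars2, for asparagine, fell from 373 ± 5.24 to 275 ± 31.7 normalized counts (mean ± SD, n = 3 each; log2 fold change -0.44, SE 0.15, adjusted p = 0.0432) and was lost without the same libraries as Vars2, at 0.0638 to 0.144, with DESeq2, at 0.0525, and with no filter on low counts, at 0.0993. Iars2, for isoleucine, fell from 1557 ± 88.7 to 1154 ± 121 normalized counts (mean ± SD, n = 3 each; log2 fold change -0.43, SE 0.12, adjusted p = 0.0203), and without replicate 2 of DMSO, or replicate 1 or 3 of SKI-II, its adjusted p was 0.0581 to 0.0743. The exons of Iars2 overlap those of Rab3gap2 on the opposite strand over 2034 bp (22.9% of its exon bases), so its value is less certain than those of Aars2, Vars2 and Nars2.

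Among the mitochondrial genes that were not called, Sars2 stood at -0.41 ± 0.17 (SE), Hars2 at -0.30 ± 0.14 and Yars2 at -0.26 ± 0.15, for serine, histidine and tyrosine, each with all SKI-II libraries below all DMSO libraries. Ears2, for glutamate, stood at 0.25 ± 0.18, Wars2, for tryptophan, at 0.09 ± 0.16 and Tars2, for threonine, at 0.07 ± 0.13. Cars2, for cysteine, Mars2, for methionine, and Pars2, for proline, had the widest errors, at -0.39 ± 0.34, -0.44 ± 0.34 and 0.09 ± 0.35. In all 3 DMSO replicate 1 was the highest and DMSO replicate 3 the lowest library of its group, as for Mars2 with 321, 251 and 114 normalized counts. Without DMSO replicate 3, Mars2 was called lower at an adjusted p of 0.0279. Cars2 overlaps Naxd on the opposite strand over 422 bp. Lars2, the leucine enzyme, singled out here after its values were seen, had 5155, 5638 and 9929 normalized counts with DMSO and 9272, 6476 and 7745 with SKI-II. DMSO replicate 3 was the highest of all 6 libraries and the other DMSO libraries the lowest, so the groups overlapped (log2 fold change 0.18, SE 0.24, adjusted p = 0.594), and without DMSO replicate 3 Lars2 was called higher at an adjusted p of 0.0364.

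The counts of the mitochondrial set also turned on single libraries. The number that rose was 1 when replicate 1 of either group was left out, and 0 without replicate 2 of either group or replicate 3 of SKI-II. The number that fell was 2 without replicate 1 of DMSO or replicate 2 of SKI-II, 1 without replicate 1 of SKI-II and 0 without replicate 2 of DMSO. The median log2 fold change of the set was -0.12 without DMSO replicate 1.

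None of the 3 scaffold genes of the complex was called. Aimp1, whose protein is also cut into a secreted cytokine, had 1076, 1269.7 and 1599.7 normalized counts with DMSO and 1038, 1467 and 1586 with SKI-II (log2 fold change 0.05, SE 0.19, adjusted p = 0.848). Aimp2, which holds the complex together, had 542, 443 and 467 normalized counts with DMSO and 319.9, 513 and 447 with SKI-II (log2 fold change -0.18, SE 0.19, adjusted p = 0.481). For both the ranges of the 2 groups overlapped widely. The exons of Aimp2 overlap Eif2ak1, the gene of the kinase HRI, on the opposite strand over 487 bp (29.4% of its exon bases). Eef1e1 stood at 0.04 ± 0.21 (SE), and none of the 3 was called under any of the alternatives.

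Levels were compared between genes as CPM per kilobase of exon, with the exons of all annotated transcripts joined, so genes with long untranslated exons read low. In DMSO the median level of the cytosolic synthetases was 69.5 and that of the mitochondrial ones 6.71. The cytosolic genes ran from 23.4 ± 1.08 (mean ± SD, n = 3) for Farsa to 174 ± 30.8 for Sars, with Nars at 166 ± 23.7, Gars at 154 ± 16.6 and Vars at 147 ± 15.1 next to it, differences between these neighbours that were within their spread. The mitochondrial genes ran from 1.26 ± 0.580 for Mars2 to 38.8 ± 14.8 for Lars2, and the next below Lars2 was Tars2 at 13.8 ± 0.585. With SKI-II the level of Wars was 159 and that of Vars 81.0, from 72.2 ± 4.76 and 147 ± 15.1 with DMSO. The summed level of the 16 mitochondrial genes was 947 ± 136 CPM with DMSO and 962 ± 68.2 with SKI-II, and without Lars2 it was 517 ± 28.3 and 474 ± 28.2. The groups overlapped in both sums.

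**Figure D3:**
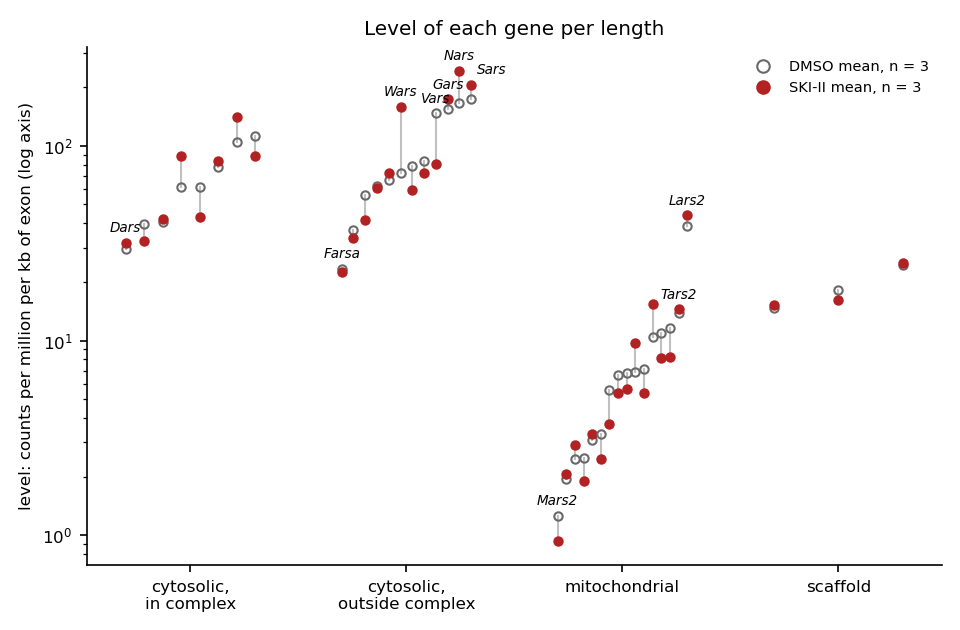
Level of each gene (y axis, CPM per kilobase of exon, log scale; each circle a mean of 3 libraries, DMSO open and SKI-II filled, joined by a line), sorted by the DMSO level within each group of genes on the x axis. The mitochondrial genes, with a DMSO median of 6.71, lie below the cytosolic ones, with 69.5, and Lars2 alone among them lies within the cytosolic range.

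The cytosolic and mitochondrial sets differed by 0.29 in their median log2 fold change, 0.01 against -0.28. No test was made of this difference, since genes are not replicates, and without DMSO replicate 1 it was 0.07. For 16 amino acids both sets hold an enzyme, which gives 17 pairs because phenylalanine has both cytosolic subunits. In 10 of the 17 pairs the cytosolic and the mitochondrial gene had a log2 fold change of the same sign, and in 8 the level of the cytosolic gene relative to the mitochondrial one was higher with SKI-II. In every library the cytosolic gene of a pair had the higher level per length, the closest being Lars over Lars2 in DMSO replicate 3, with a ratio of 1.11.

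The ratio of a pair compares 2 genes within a library and so does not depend on the scaling between libraries. For asparagine, Nars over Nars2 was 43.2, 50.5 and 56.1 with DMSO and 101, 108 and 91.0 with SKI-II. The ratio was higher in each SKI-II library than in any DMSO library, with a log2 difference of 1.00 ± 0.13 (SE), and both genes were called, in opposite directions. For tryptophan, Wars over Wars2 was 19.8, 27.9 and 23.3 with DMSO and 39.8, 49.0 and 57.5 with SKI-II, a log2 difference of 1.04 ± 0.21 and again no overlap. For alanine, Aars over Aars2 was 9.99, 12.5 and 13.8 with DMSO and 20.3, 16.7 and 22.0 with SKI-II (0.71 ± 0.18), of which only the mitochondrial gene was called. The same held for isoleucine, where Iars over Iars2 was 6.46, 7.44 and 7.49 with DMSO and 10.4, 9.95 and 10.8 with SKI-II (0.54 ± 0.08). Because of the overlap of Iars2 with Rab3gap2, this ratio is less certain. Serine had a log2 difference of 0.67 ± 0.22, with neither gene called.

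Phenylalanine went the other way. Farsb over Fars2 was 12.2, 11.4 and 10.9 with DMSO and 5.90, 6.22 and 6.21 with SKI-II, a log2 difference of -0.91 ± 0.05, with the cytosolic beta subunit called lower and the mitochondrial enzyme called higher. Farsa over Fars2 differed by -0.56 ± 0.17. For valine both genes fell, and Vars over Vars2 was 11, 13.3 and 13.8 with DMSO and 9.59, 10.5 and 9.54 with SKI-II (-0.36 ± 0.11), still without overlap. For arginine both genes rose, and the ratio of Rars to Rars2 overlapped between the groups, with a log2 difference of -0.15 ± 0.29. The groups also overlapped for the pairs of cysteine, glutamate, histidine, leucine, methionine, proline, threonine and tyrosine. Each of the pairs without overlap had p = 0.1 in an exact two-sided permutation test, which is the smallest that this design allows and 0.213 after Benjamini-Hochberg adjustment over the 17 pairs, so no pair could pass.

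**Figure D4:**
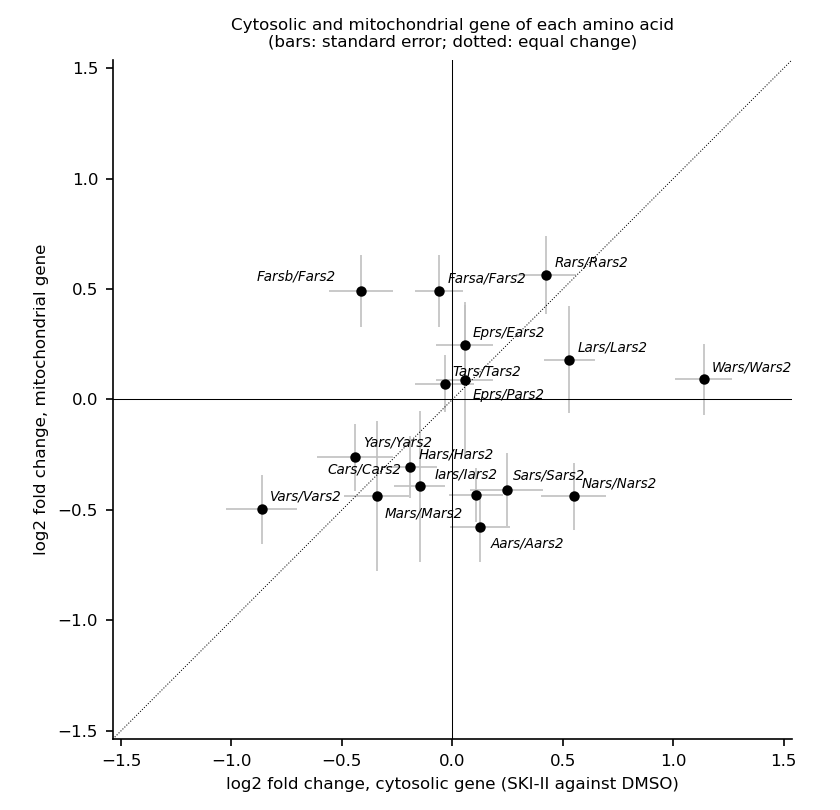
Log2 fold change of the cytosolic gene (x axis) against that of the mitochondrial gene (y axis) for the 17 pairs, SKI-II against DMSO, with bars of 1 standard error and a dotted line of equal change. Nars/Nars2 and Wars/Wars2 lie farthest to the lower right of the line, by about 1.00 and 1.04, and Farsb/Fars2 farthest to its upper left.

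The other genes around aminoacylation moved in both directions. Of 16 such genes 6 rose and 6 fell (37.5% each, against 18.4% and 19.7% of all genes), with a median log2 fold change of -0.08. Tarsl2, a second cytosolic threonyl-tRNA synthetase, had 377, 385 and 414 normalized counts with DMSO and 128, 119 and 136 with SKI-II. It fell with no overlap (-1.62, adjusted p = 6.2e-05), beside Tars itself at -0.04. Aarsd1, which removes serine from mischarged alanine tRNA, fell from 208 ± 9.07 to 84 ± 20.7 normalized counts (-1.30, adjusted p = 0.00169). Prorsd1, which edits mischarged proline tRNA, rose from 239 ± 21.5 to 511 ± 70.4 normalized counts (1.10, adjusted p = 0.00065). Mitochondria have no glutaminyl-tRNA synthetase, and glutamine tRNA is made there by an amidotransferase, of whose subunits Qrsl1 and Gatb fell (-0.74, adjusted p = 0.00721; -0.48, adjusted p = 0.02) and Gatc rose (0.51, adjusted p = 0.00719). These 3 subunits were named after their values were seen.

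The synthetases were also set beside the 31 other genes listed as targets of ATF4, of which 30 had enough reads (Vldlr did not). This list was chosen with earlier results of these data known, so its difference from the synthetases was not tested. Of these 18 rose (60.0%) and 4 fell (13.3%), against 18.4% and 19.7% of all genes, with a median log2 fold change of 0.81. Of the 20 cytosolic synthetases 4 rose and 3 fell, with a median of 0.01. Ppp1r15a, which encodes the eIF2 alpha phosphatase subunit GADD34, rose from 654 ± 238 to 5786 ± 1887 normalized counts (3.15, adjusted p = 6.67e-05). Aldh1l2, a mitochondrial folate enzyme, rose from 1871 ± 330 to 11693 ± 836 normalized counts (2.64, adjusted p = 7.89e-06), and Slc1a5, a glutamine transporter, fell from 6259.6 ± 737 to 1527 ± 265.3 normalized counts (-2.04, adjusted p = 1.8e-05). The list did not move as one. Its other genes that fell were Psat1 (-0.98), Mthfd2 (-0.58) and Shmt2 (-0.48). Those not called were Asns (0.02), Phgdh (-0.03), Pck2 (0.07), Gpt2 (0.03), Slc7a5 (-0.10), Slc38a2 (0.12), Slc7a1 (0.23) and Eif4ebp1 (0.55). Among the subunits of eIF2, which brings the initiator tRNA to the ribosome, and of its exchange factor eIF2B, 1 of 8 rose (Eif2b2, 0.54, adjusted p = 0.0132) and 1 fell (Eif2s3x, -0.68, adjusted p = 0.0059). That is 12.5% in each direction, against 18.4% and 19.7% of all genes, and the median of the 8 was -0.09.

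**Figure D5:**
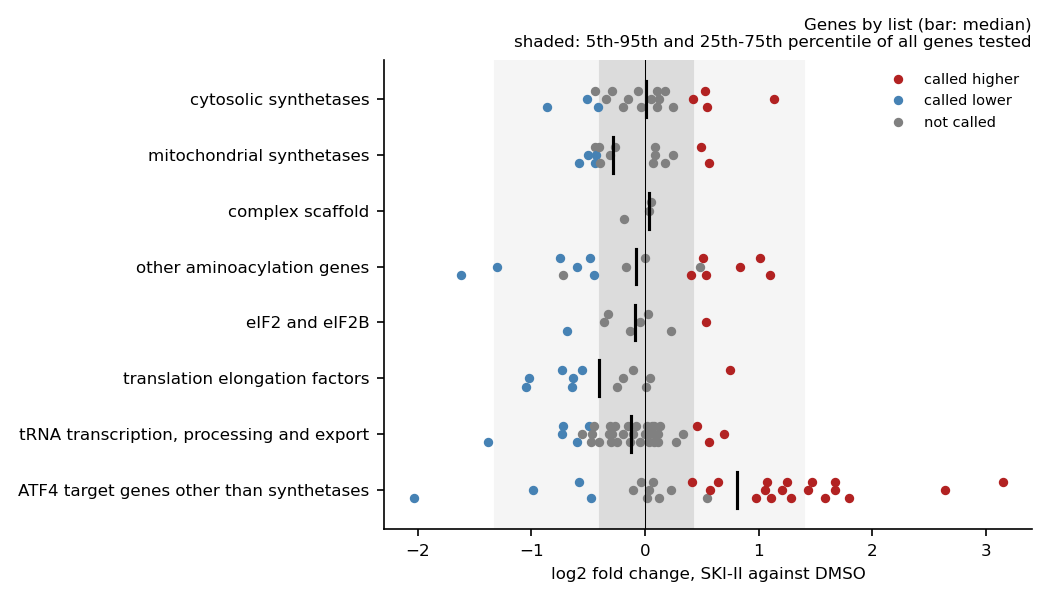
Log2 fold change, SKI-II against DMSO (x axis), of each gene in the synthetase groups and in the other lists, coloured by call, with the median as a bar and the ranges that hold 50% and 90% of all 12274 genes shaded. The medians of the cytosolic synthetases (0.01), the mitochondrial ones (-0.28) and the scaffold (0.04) lie within the range that holds 50% of all genes. That of the other ATF4 target genes, a list chosen with earlier results of these data known, lies at 0.81.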

How the data were processed

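Poly(A)-selected RNA of 6 RAW264.7 libraries, 3 with DMSO and 3 with SKI-II, was sequenced. The table used here holds raw read counts per Ensembl gene as the authors deposited them; normalized values of theirs were not used here. The submitters' processing notes name Trimmomatic 0.36, STAR 2.5.2b, featureCounts (Subread 1.5.2) and DESeq2. Genome build, annotation and strand setting: not given in the sources used here. GENCODE M21 (GRCm38) named 49056 of 49315 rows, and unnamed rows held 0.0102% of the counts. Groups came from the sample labels. No 2 libraries of a group agreed within sampling noise (chi-square per degree of freedom 15.4 to 58.1).

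Genes were filtered by expression per group (minimum count 10, minimum total 15), which kept 12274 genes and at least 99.9% of the counts, scaled with TMM factors and tested in edgeR 4.0.16 (R 4.3.3; glmQLFit and glmQLFTest) without covariates. The common biological coefficient of variation was 17.5%. Standard errors and 95% intervals came from the fitted model. Normalized counts are counts over the scaled library size times 16060516, the mean scaled size. Figures were drawn with matplotlib 3.10.9.

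The members and all gene lists were chosen with earlier results of these data known. Library values are given for the called member with a log2 fold change beyond 1 and for the highest and lowest member of each group, fold changes for the rest, and in each other list the 3 called genes with the largest change are named. In the list of ATF4 targets the genes that fell or were not called are named as well. The 12 alternatives were DESeq2 1.42.0, RLE scaling, library size alone, no filter, a stricter filter (10 counts or more in every library), the omission of each library, and the replicate number as a block. The set counts were also taken without Gars and Kars. Some results are not reported here.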

Additional observations from a re-analysis of the deposited data

How the results depend on the processing

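Of the 13 called genes, Wars, Lars and Vars kept the call under all 12 alternatives, 10 lost it under at least 1 and none changed direction; 8 of the members that were not called changed sign under at least 1. Leaving out each library in turn gave 2 to 6 members called higher and 1 to 8 called lower, 2 to 4 and 1 to 5 among the cytosolic synthetases, 0 to 2 and 0 to 3 among the mitochondrial ones, a mitochondrial median log2 fold change of -0.325 to -0.115, and a cytosolic minus mitochondrial median of 0.0659 to 0.359. Over the whole table these fits called 1507 to 2227 genes higher and 1766 to 2387 lower. Without SKI-II replicate 3 the members called lower were 8 and the cytosolic ones 5, above the reported 7 and 3. With library size alone 1 mitochondrial gene was called higher, Rars2 being lost. RLE scaling, the filters, DESeq2 and the cytosolic set without Gars and Kars kept each count of members and of the 2 sets within 1.5 times the reported one.

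With the replicate number as a replicate block, 6 members were called higher and 10 lower, and 5 cytosolic genes were called lower, Mars and Yars being added, as was Sars2 among the mitochondrial genes. The labels do not say that a number marks a shared batch, and deviations of same-numbered libraries correlated at 0.241, 0.015 and 0.447. DMSO replicate 1 correlated best with SKI-II replicate 2 (0.284), while replicate 3 of each group correlated best with replicate 3 of the other. Since the match was not the same for each number, the numbers were not taken as pairs in the main fit. Over the whole table the block called 2765 genes higher and 2819 lower, against 2255 and 2413 without it. Whether same-numbered libraries share a batch was not tested. Every member had at least 53 counts in each library, and 3 libraries per group left standard errors of 0.11 to 0.35 on the log2 scale.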

Other observations

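Translation elongation factors, which bring charged tRNA to the ribosome and move it along, mostly fell or were not called. Of 12 such genes 6 fell and 1 rose with SKI-II, against 19.7% and 18.4% of all genes tested, with a median log2 fold change of -0.40. Gfm1, the mitochondrial elongation factor G, fell from 1056 ± 42.2 to 512 ± 28.8 normalized counts (-1.04, adjusted p = 0.00015) and Eif5a, which helps the ribosome through stretches of proline, fell from 24919 ± 2913 to 12269.7 ± 3424 normalized counts (-1.02, adjusted p = 0.00453) (edgeR's quasi-likelihood test, Benjamini-Hochberg adjustment). Eef2k, the kinase that inhibits elongation factor 2, rose from 476 ± 81.5 to 798 ± 58.9 normalized counts (0.75, adjusted p = 0.00438).

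Of 38 genes of tRNA transcription, processing and export, 3 rose (7.89%) and 5 fell (13.2%), against 18.4% and 19.7% of all genes, with a median of -0.12. Polr3g, a subunit of RNA polymerase III, fell from 220.2 ± 16.3 to 85 ± 14.3 normalized counts (-1.38, adjusted p = 0.000727). Elac1, a tRNA-processing nuclease, had a log2 fold change of -0.73, adjusted p = 0.0138, and Rpp40, a subunit of ribonuclease P, one of -0.72, adjusted p = 0.0314.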
